A study of Homo sapiens with 4 samples.

Results

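RepID, the product of the PHIP gene, binds chromatin at a subset of the sites where human cells begin to copy their DNA, and most of its bound regions lie in groups. The regions described here are the exceptions, RepID-bound regions that stood alone at a replication origin. They were chosen by measured values, namely the positions of the deposited regions: a RepID-bound region on chromosomes 1 to 22 was kept when no other RepID-bound region lay at a gap of 100 kb or less and when an origin of wild-type cells lay at a gap of 2 kb or less. This held for 1754 of the 23897 autosomal RepID-bound regions (7.34%, 95% confidence interval 7.01 to 7.68%) and of 24222 in all. Of the 2251 autosomal regions that stood alone, the other 497 had no wild-type origin within 2 kb. The RepID-bound regions at wild-type origins with another RepID-bound region within 100 kb, called clustered here, numbered 20046.

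RepID binding was mapped by ChIP-Seq with an antibody to FLAG in asynchronous U2OS cells, an osteosarcoma cell line that stably expressed FLAG-tagged RepID. Origins were mapped by sequencing nascent strands, short pieces of newly copied DNA purified with λ exonuclease, from asynchronous HCT116 cells, a colorectal carcinoma cell line, either wild type (WT) or depleted of RepID (KO) with a CRISPR guide against the fourth exon of the gene and puromycin selection. The study's methods speak of selecting stable knockout clones after seeding at serial dilutions. Whether the sequenced cells came from 1 clone is not given in the sources used here. Binding and initiation were therefore measured in different cell lines, with 1 library per condition.

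A replication origin is a place where the double helix is opened and new strands begin. Mammalian cells license many more origins than they use in any 1 cell cycle, and neighbouring origins can replace each other. Origins are dense in early-replicating, gene-rich chromatin and sparse in late-replicating chromatin, and a bound region that stands alone allows the initiation list to be read around it with no second bound region nearby.

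The authors deposited 1 list of enriched regions per library, each with its coordinates and a score. The WT list held 78859 regions, the KO list 159667. Of the KO regions, 58656 (36.7%) lay at a gap of 2 kb or less from a WT region. All KO regions were used, except where a smaller set is named. Without read totals in the lists, sequencing depth is unknown, and a list of more regions covers more positions whatever the cells did: the KO regions covered 557 Mb and the WT regions 305 Mb. For that reason coverage by KO regions (the share of positions that lie under a KO region) was always set against positions nearby, other RepID-bound regions or other origins in the same list. With no replicates there is no spread to test a difference against, and no p-value is given. The intervals given with shares are exact binomial (Clopper-Pearson) intervals and those of differences are Newcombe intervals. They cover counting error only and treat regions as independent, which neighbouring regions are not. Positions are those of the lists, counted from 1, on build hg19 as named in the submitters' processing notes.

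The solitary RepID regions were short. Their median width was 617.5 bp, with quartiles of 422 and 944 bp and a range from 243 to 3206 bp. Clustered regions had a median of 573 bp and quartiles of 427 and 848 bp. The score given by MACS, the programme with which the authors called RepID regions against genomic input, had a median of 240 among solitary regions (quartiles 136 and 443), against 203 in clustered regions (132 and 365). The quartile ranges of both sets overlapped in width and in score, with higher medians in the solitary set. The solitary regions without a WT origin were narrower and lower, with medians of 439 bp and 154.

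The median distance from a solitary region to the next RepID-bound region was 176 kb, with quartiles of 126 and 284 kb. Just inside the limit lay a region on chromosome 19 (chr19:52900849-52901226, score 116) whose nearest RepID-bound neighbour was 100.118 kb away. Just outside it lay a region on chromosome 15 (chr15:21214915-21215468, score 365), at 99.923 kb. Near the limit for the WT origin, a region on chromosome 7 (chr7:76639121-76639476) with its origin at 1720 bp was kept. A region on chromosome 9 (chr9:36766015-36766583) with its origin at 2017 bp was not. The limits cut through a continuous range of distances and mark no gap in the data.

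The highest-scoring solitary region was also the widest and had the highest score of the entire RepID list. It lay on chromosome 4 (chr4:62065796-62069001), spanned 3206 bp and scored 3233, with the next RepID-bound region 541 kb away. A WT origin from 62065601 to 62069400 enclosed it, and no other WT origin lay within 100 kb. The KO list held nothing there, its nearest region being 21199 bp away.

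The next members by score carried the same value of 3100, which 32 RepID-bound regions in the list share. They lay on chromosome 1 (chr1:121137647-121139363), chromosome 16 (chr16:46460979-46463029) and chromosome 7 (chr7:61820266-61822625). Each of these stood within 1 Mb of the longest stretch of its chromosome that holds no region of any list. On chromosome 1 that stretch was 21.1 Mb long and on chromosome 16 it was 11.2 Mb. Of all solitary regions, 33 lay within 1 Mb of such a stretch. They included 5 of the 79 members that scored 1000 or more. Without these 33 the median score was 239.65, against 240.27 with them. The fifth region by score, also on chromosome 7 (chr7:157253945-157254384), was only 440 bp wide at a score of 2823 and lay 216 bp outside its WT origin, from 157254601 to 157266000.

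The 3 most isolated members scored below the median of the solitary regions, but isolated members in general did not. Over the 733 members more than 200 kb from the next RepID-bound region the median score was 247, against 240 over all members. On chromosome 13, a region of 360 bp with a score of 148 (chr13:88329936-88330295) had no other RepID-bound region within 3721 kb. A second on the same chromosome (chr13:67804693-67805138, 446 bp, score 146) was 3419 kb from its nearest neighbour. Another, on chromosome 2 (chr2:79220056-79220638, 583 bp, score 166), was 2488 kb away. All 3 overlapped a WT origin, and in all 3 the nearest KO region lay beside the RepID region and not on it, at gaps of 335, 492 and 1855 bp in that order. Of all 1754 members, 1688 (96.2%) overlapped a WT origin and 543 were overlapped by a KO region. Neither feature thus set these 3 apart from most members.

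Within the WT origin, the centres of most solitary RepID regions lay nearer the middle than the edge. The rule asked for a gap of 2 kb or less, and 1688 of 1754 (96.2%) overlapped their WT origin and the centre of 1642 (93.6%, 92.4 to 94.7%) lay inside it. Clustered regions had nearly the same shares, 96.3% and 94.0%. The whole RepID region fitted inside the origin for 1340 solitary regions (76.4%), and 19 (1.08%) reached across the entire origin, against 85.4% and 0.274% of clustered regions. The median distance between the 2 centres was 372.5 bp, in origins with a median width of 2200 bp.

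Because wide origins give more room, the distance between the centres was also expressed as a relative offset, which is 0 at the origin centre and 1 at its edge and would have a median of 0.5 if RepID centres were spread evenly. The median relative offset of the solitary regions was 0.327 (quartiles 0.154 and 0.549), against 0.424 (0.211 and 0.657) for clustered regions. When the way from centre to edge was cut into 3 equal parts, 840 of the 1642 solitary centres fell in the inner part (51.2%, 48.7 to 53.6%), 537 in the middle part (32.7%) and 265 in the outer part (16.1%). Clustered centres were divided into 39.7%, 36.2% and 24.1%. The reference of 0.5 treats a RepID region as a point. A region wholly inside its origin cannot have its centre at the edge, and a relatively wider one is held closer to the middle. Solitary regions filled a median of 30.8% of the origin width and clustered regions 12.6%. How much of the offsets, and of their difference between the sets, comes from relative width was not tested. The offset was 0.333 in origins under 2 kb and 0.303 in those of 2 kb to under 5 kb, and rose to 0.439 in the 221 origins of 5 kb and wider.

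The WT origins at solitary RepID regions were close in width to WT origins in general. Each member had its own, so that there were 1754 of them, with a median width of 2200 bp and quartiles at 1600 and 3200 bp. The median was 2400 bp over all autosomal WT origins and 3600 bp at clustered RepID regions. Their median score in the WT list, a whole number whose meaning is not stated, was 176, above the 123 of all autosomal WT origins and below the 357 at clustered regions. A RepID region filled 30.8% of the width of its origin in the median solitary case and 12.6% in the median clustered case. More than 1 WT origin lay within 2 kb of 74 solitary regions (4.22%) and of 8.60% of clustered ones.

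Solitary RepID regions lay where WT origins were sparse. The median number of other WT origins within 100 kb was 3 (quartiles 1 and 8), against 13 (7 and 17) around clustered regions. No other WT origin lay within 100 kb of 299 members (17.0%, 15.3 to 18.9%), as against 2.37% of clustered regions, while 10 or more were counted around 354 members (20.2%, 18.3 to 22.1%) and around 65.0% of clustered regions. The WT list covered 9.52% of positions 9 to 10 kb from a solitary centre and 39.4% of those at the same distance from a clustered one. Part of this is set by the rule, since RepID-bound regions and WT origins tend to lie together and the rule removes neighbouring RepID-bound regions.

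In the KO list the surroundings were less distinct. The median number of KO regions within 100 kb was 13 (quartiles 9 and 16) for solitary and 14 (10 and 18) for clustered regions. Even the members with no other WT origin within 100 kb had a median of 9 KO regions in that span.

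**Figure D1:**
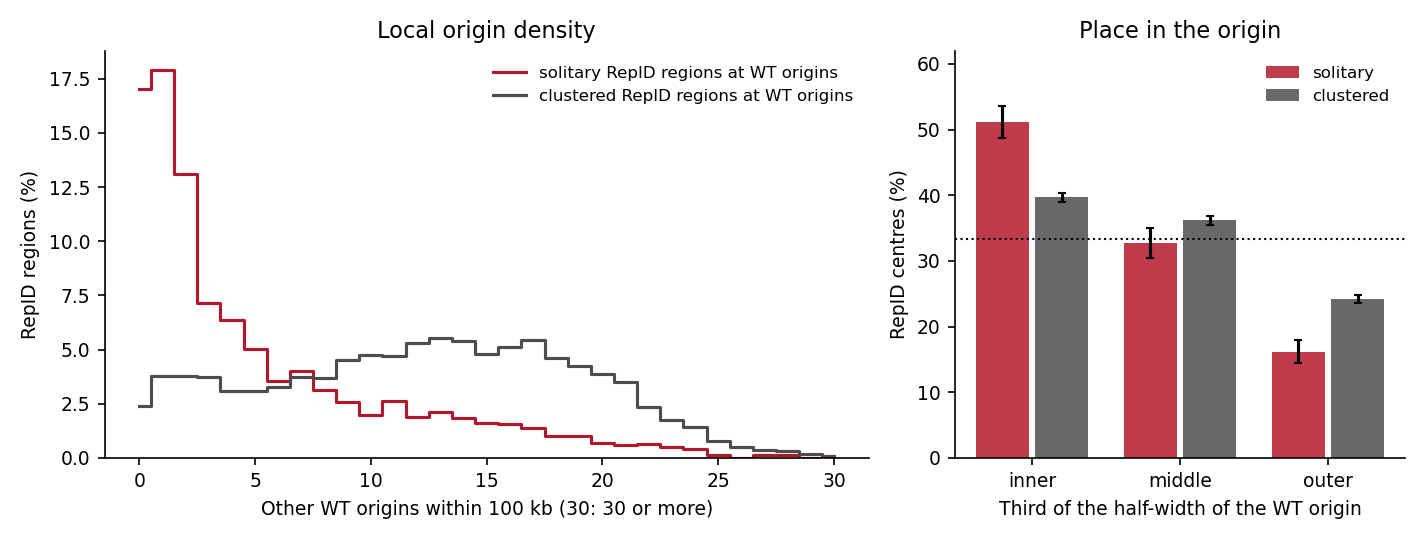
Left, percentage of RepID regions (y) by the number of other WT origins within 100 kb (x, with 30 standing for 30 or more), for solitary (red) and clustered (grey) regions at WT origins. Right, percentage of RepID centres inside a WT origin (y) that fall in the inner, middle and outer of 3 equal parts of the way from the origin centre to its edge (x), with 95% binomial intervals and a dotted line at an even spread of points. The line takes no account of the width of the RepID regions. Solitary regions pile up at low origin numbers, with a median of 3, and 51.2% of their centres lie in the inner part.

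The question the KO list answers is whether initiation was still called where RepID stands alone. A KO region covered the centre of 343 of the 1754 solitary RepID regions (19.6%, 17.7 to 21.5%). The same held for 19.9% of all autosomal RepID-bound regions and 20.3% of all those at WT origins, so the solitary share was near the background. Against clustered regions at WT origins (20.4%) the difference was -0.853 percentage points (-2.73 to 1.15). At the solitary regions without a WT origin the share was 16.1% (13.0 to 19.6%).

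Coverage by KO regions was lowest at the solitary RepID centre and rose on either side. From 19.6% at the centre it reached 23.3% at 500 bp upstream (lower coordinates) and 25% at 500 bp downstream, and 28.3% and 29.2% at 1000 bp. The highest value within 10 kb, 30.1%, lay 1200 bp downstream. Averaged over positions 1 to 2 kb away it was 29.2%, so that the centre held 0.670 times (0.607 to 0.736, counting error of the centre) the coverage of its shoulders.

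Farther out it fell again to 22.3% at 9 to 10 kb, and the centre held 0.877 times (0.795 to 0.963) that edge level. The interval of this ratio reached past 1 when only the top-scoring KO regions were used, as many as there are WT regions (0.933, 0.830 to 1.04), whereas that of centre to shoulders did not (0.755, 0.671 to 0.844). When KO regions more than 2 kb from every WT region were left out, the ratio of centre to edge turned to 1.97 (1.79 to 2.17). That step removes KO regions at the edge by construction, and the ratio of centre to shoulders was then 0.671. Clustered regions had the same dip with flatter shoulders: 20.4% at the centre, 27.2% at 1 to 2 kb and 25.7% at 9 to 10 kb, ratios of 0.750 and 0.795. At solitary RepID regions without a WT origin the profile had no shoulders, with 16.1%, 18.1% and 20.2% at the same places.

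**Figure D2:**
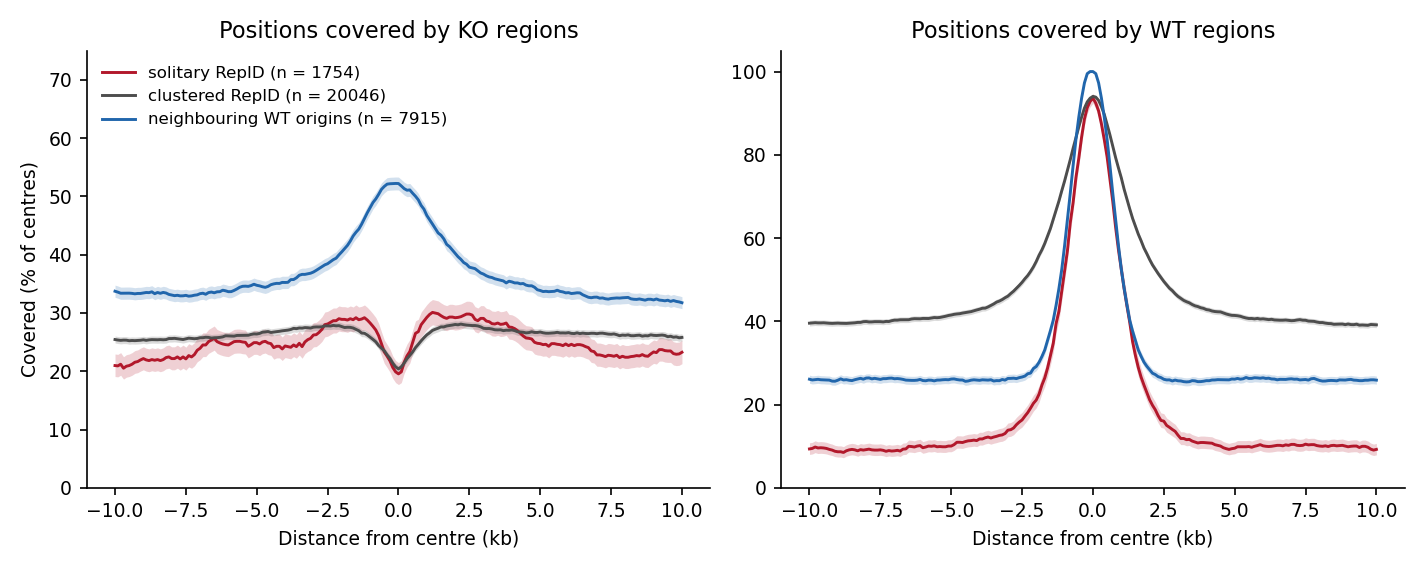
Percentage of positions under a KO region (left) or a WT region (right) (y) against the distance from the centre in kb (x, read every 100 bp), around solitary RepID centres at WT origins (red), clustered RepID centres at WT origins (grey) and the centres of neighbouring WT origins away from RepID (blue). Shading is the 95% binomial interval. KO coverage around solitary centres dips to 19.6% between shoulders near 29%, whereas around neighbouring WT origins it peaks at 52.2%.

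Pooled over all solitary regions, KO coverage was lower inside the RepID region than just beyond its ends. KO regions covered 19.3% of the 1.31 Mb inside the solitary RepID regions. That value is weighted by bases, and the widest of 5 classes by width held 0.509 Mb of them. The step at the ends differed with width, as given below. Just 250 bp beyond either end they covered 27.1% (25.6 to 28.6%) of positions, at 500 bp 29.0%, at 1000 bp 29.8% and at 5000 bp 24.8%. Clustered regions went from 20.5% inside to 24.7% at 250 bp and reached 28.1% at 2000 bp. Positions just outside a clustered region often fall into another RepID-bound region, the median gap to the next one being 0.617 kb.

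Single regions can hide behind such averages, so each member was also classed by its centre and by the positions 1.5 kb to either side. Neither the centre nor the flanks were covered in 902 members (51.4%). In 423 (24.1%) exactly 1 flank was covered and the centre was not, in 86 (4.90%) both flanks were covered and the centre was not, and in 125 (7.13%) all 3 positions were covered. The remaining 218 (12.4%) had a covered centre without both flanks. Clustered regions had near values in the same order: 55.0%, 20.7%, 3.89%, 7.71% and 12.7%. Most members without a covered centre thus had no KO region at either flank. A bare centre with 1 or both flanks covered was found in 509 members (29.0%) and in 24.6% of clustered regions.

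Where both flanks were covered, the centre between them was bare in 86 of 211 members (40.8%, 34.1 to 47.7%). For clustered regions this was 33.5%, a difference of 7.24 percentage points (0.54 to 14.2). For the centres of neighbouring WT origins, defined below, it was 10.2%. No 2 regions of the KO list lie closer than 800 bp, so bare stretches shorter than that could not be seen.

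The highest-scoring members of this kind, picked after their values were seen, show the arrangement. On chromosome 8 a RepID region of 2454 bp with a score of 1913 (chr8:133491406-133493859) lay in a WT origin from 133490801 to 133496000. The KO list had a region from 133484801 to 133491600 and another from 133493801 to 133503000, with 2200 bp between them over the RepID centre. On chromosome 1 (chr1:144930907-144932840, score 1318) KO regions from 144925001 to 144931400 and from 144932401 to 144934600 left 1000 bp free. On chromosome 9 (chr9:88713577-88714896, score 1114) regions from 88710601 to 88713400 and from 88715201 to 88718800 left 1800 bp.

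By distance, a KO region overlapped 543 members (31%) and lay within 500 bp of a further 218 (12.4%). Wider gaps, up to 1000 bp, were found for 104 (5.93%), up to 2000 bp for 124 (7.07%), up to 5000 bp for 284 (16.2%) and up to 10000 bp for 216 (12.3%). For clustered regions the shares from overlap to the widest of these gaps were 28.9%, 9.18%, 6.37%, 9.28%, 16.5% and 13.5%. No KO region lay within 10 kb of 265 members (15.1%, 13.5 to 16.9%), against 16.5% of all autosomal RepID-bound regions and 23.7% of the solitary ones without a WT origin. The highest-scoring members of that class were those named above on chromosomes 4, 16 (nearest KO region 39771 bp away) and 7 (12465 bp).

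The KO regions that did cover a solitary RepID centre were among the wider and higher-scoring ones of their list. Their median width was 4000 bp, against 3000 bp for all KO regions, and their median score stood at the 73.3 percentile of the list. This held no less for the other centres: the KO regions over clustered RepID centres had a median width of 4400 bp and stood at the 76.7 percentile, those over neighbouring origins, defined below, at 4600 bp and the 80.9 percentile. Wide regions are more likely to cover any given point. Among the highest-scoring members with a covered centre, that on chromosome 1 described above lay under a KO region from 121133001 to 121138600 (97.9 percentile of score). One on chromosome 8 (chr8:124552064-124554254, score 1500) lay under a region from 124546801 to 124553600 (94.0 percentile). In contrast, one on chromosome 7 (chr7:3082276-3084118, score 1573) was met only by a KO region of 600 bp, from 3083001 to 3083600, at the 0.741 percentile.

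Centres of the widest and of the highest-scoring solitary RepID regions were covered least often in KO cells. In 5 classes of about equal number by width, KO regions covered 22.5%, 26.1%, 21.4%, 17.7% and 9.97% of centres from the narrowest (243 to 391 bp) to the widest (1049 to 3206 bp). The widest class was lower than the narrowest by 12.6 percentage points (difference -12.6, -17.9 to -7.17). At 2 kb from the centre the same classes had 23.9%, 32.0%, 28.9%, 28.6% and 31.9%, with no such fall. The centre of the widest regions thus held 0.312 times the coverage found 2 kb away, and that of the narrowest 0.941 times.

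By score the shares were 23.6%, 25.1%, 23.1%, 13.7% and 12.3%, and the highest class differed from the lowest by -11.4 points (-17.0 to -5.74). The step lay between the third class (up to 311) and the fourth (from 312). Clustered regions fell in the same direction. In the same classes of score their shares were 24.3%, 23.6%, 20.3%, 16.5% and 13.9%, and by width 20.7%, 23.2%, 21.7%, 17.9% and 16.4%. Width and score come from the same call and rise together, and their separate parts were not tested. The widest class stood apart between covered flanks too: of the members with both flanks covered, the centre was bare in 26.3%, 33.3%, 27.8%, 39.5% and 68.6% (35 of 51) by ascending width. The KO list has no gap under 800 bp, and the third class by width reached only 737 bp. Bare stretches as short as the narrower regions could not appear, so part of this rise with width is set by the list.

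**Figure D3:**
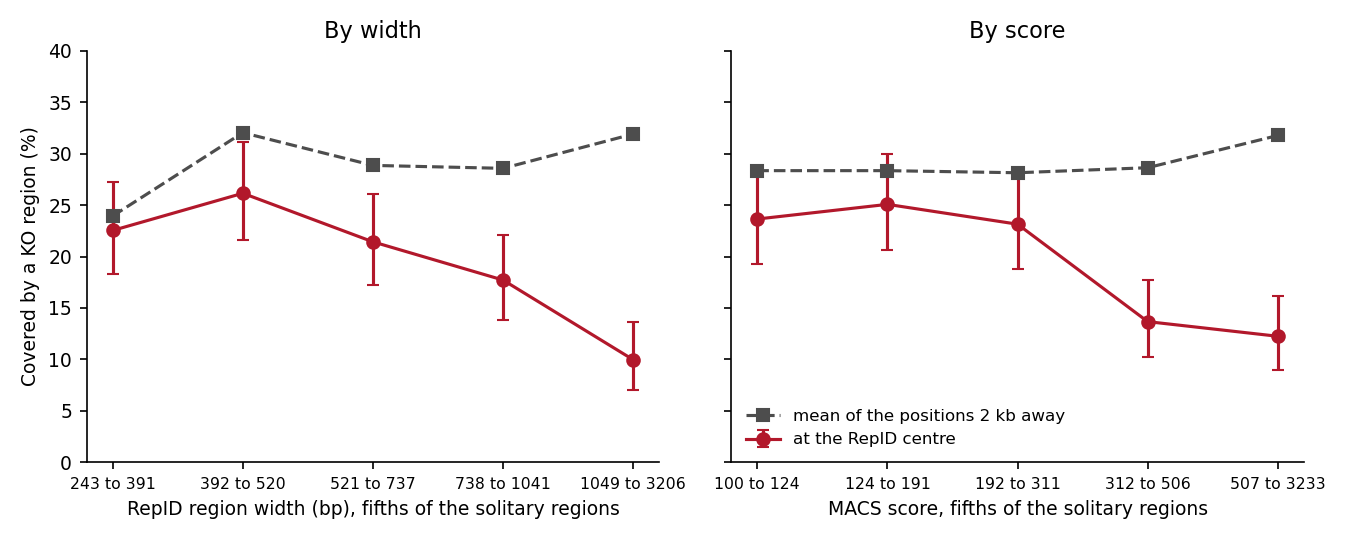
Percentage of solitary RepID centres under a KO region (red, with 95% binomial intervals) and mean percentage at the positions 2 kb to either side (grey squares) (y), in 5 classes of RepID region width in bp (left) and of MACS score (right) (x). The centre falls to 9.97% in the widest and 12.3% in the highest-scoring class, while the positions 2 kb away stay between 23.9% and 32.0%.

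In the widest class the clustered fall was smaller. Above the lower limit of the widest class, KO regions covered 9.97% of the 351 solitary and 16.4% of the 3088 clustered centres, a difference of -6.45 points (-9.48 to -2.65). Above the corresponding limit of score the difference was -1.64 points (-4.93 to 2.39). Wide clustered regions include some far beyond the widest solitary one, up to 11803 bp.

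The edges of the widest class were sharp. Inside these regions KO coverage was 14.4%, and 250 bp outside it was 28.5%, rising to 31.6% at 500 bp. In the narrowest class coverage went from 23.3% inside to 25.2% at 250 bp and 25.8% at 500 bp. Regions of that class are shorter than 800 bp, the shortest gap in the KO list, so a dip of their own size could not appear.

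KO coverage of the flanks, more than of the centre, rose with the width of the WT origin. From the narrowest class of origin (200 to 1400 bp) to the widest (4000 to 53000 bp), KO coverage 2 kb from the RepID centre rose from 19.9% to 42.7%, while at the centre it was 18.6% and 23.6%. Part of the rise at the flanks is set by the fixed distance. For a RepID centre inside an origin of the narrowest class, positions 2 kb away lie outside the origin. In the widest class they can lie inside it. The score of the WT origin gave a like picture: coverage at 2 kb rose from 23.9% to 37.3% and at the centre it was 22.8% in the lowest and 17.9% in the highest class. The part of origin width in this picture was not tested. By place in the origin, 17.1% of RepID centres in the inner part, 21.0% in the middle part and 22.3% in the outer part were covered, with intervals that overlap (14.7 to 19.9% and 17.4 to 27.8% for the first and last).

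Both rose with local origin density. With no other WT origin within 100 kb, 14.0% of the 299 RepID centres were covered and 22.7% of positions 2 kb away. With 1 to 2 others the values were 18.8% and 25.6%, with 3 to 9 they were 18.7% and 30.1%, and with 10 or more 26.8% and 38%. The last and first class differed by 12.8 points at the centre (6.61 to 18.8). KO regions themselves were denser there, with medians of 9, 11, 14 and 17 within 100 kb in the same classes.

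Clustered centres had 12.2%, 14.8%, 19.7% and 21.6% in the same 4 classes. Solitary centres were covered more often than these by 3.97 points with 1 to 2 others (0.388 to 7.86) and by 5.19 points with 10 or more (0.787 to 10.1), and the intervals of the differences with no other (1.86 points, -2.90 to 6.99) and with 3 to 9 (-1.02, -4.24 to 2.59) span 0. The ratio of centre to flank stayed between 0.618 and 0.731 in the 4 density classes. RepID score moved in the opposite direction, with medians of 334, 283, 232 and 163 from the sparsest to the densest class, and origin width rose from a median of 1800 to 3800 bp. The parts of score, width, origin density and the density of KO regions in these shares were not tested. By distance to the next RepID-bound region, 22.5% of centres were covered in the nearest class (18.2 to 27.2%) and 17.7% in the farthest (13.8 to 22.1%), with intervals that overlap.

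To see whether the low share at solitary RepID regions was shared by the origins around them, each WT origin at a solitary region was set against the neighbouring WT origins. These lay at a gap of more than 10 kb and up to 100 kb from the same solitary region and more than 2 kb from every RepID-bound region, and there were 7915. They had the same median width of 2200 bp (quartiles 1400 and 3800) but a lower median score, 103 against 176.

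KO regions covered the centre of 444 of the 1754 origins at solitary RepID regions (25.3%, 23.3 to 27.4%) and of 4133 neighbouring origins (52.2%, 51.1 to 53.3%). The share over all autosomal WT origins was 45.6%. At clustered RepID regions it was 29.4% (28.6 to 30.3%), so a low share was not particular to origins where RepID stood alone. The origins with RepID were lower by 26.9 percentage points (difference -26.9, -29.2 to -24.5). A KO region overlapped, by 1 bp or more, 877 origins with solitary RepID (exactly 50%, 47.6 to 52.4%), 66.6% of the neighbours, 57.5% of the origins at clustered regions and 61.6% of all autosomal WT origins. The share of origins with solitary RepID was 32.0% when the KO list was limited by score to the number of WT regions, and 27.9% when at least 50% of the origin had to be covered. The difference from the neighbours was -16.6 points (-19.2 to -14.0).

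The shape of the profile differed as well. Around neighbouring origins KO coverage rose towards the centre, from 32.8% at 9 to 10 kb through 43.6% at 1 to 2 kb to 52.2%. Around the centres of WT origins with solitary RepID it was 21.7%, 30.2% and 25.3%, higher than at the edge by a factor of 1.17 but below its own shoulders. Of origins with both flanks at 1.5 kb covered, the centre was bare in 68 of 238 with solitary RepID (28.6%) and in 210 of 2057 neighbours (10.2%), a difference of 18.4 points (12.8 to 24.5).

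The difference depended on the width of the origin. Under 2 kb, 21.7% of origin centres with solitary RepID and 50.3% of neighbours were covered, a difference of -28.6 points (-32.0 to -25.0). From 2 kb to under 5 kb it was -30.4 points (24.1% and 54.5%). From 5 kb to under 10 kb it narrowed to -11.1 points (-19.2 to -2.74), and at 10 kb and wider it was -8.82 points with an interval that includes 0 (-20.4 to 3.91, 70 origins with solitary RepID).

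Counted by any overlap, the differences in the same order were -22.1, -15.0 and -9.55 points. In the widest class the sign was the other way, 7.27 points (-0.82 to 11.9). In both groups wider origins were overlapped more often. A wider origin offers more room for an overlap of 1 bp, so part of this is set by the measure. In 4 classes of WT score, cut at 94, 176 and 355, the differences at the centre were -28.8, -28.4, -31.1 and -14.9 points from low to high, below 0 in each of the 4 classes.

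**Figure D4:**
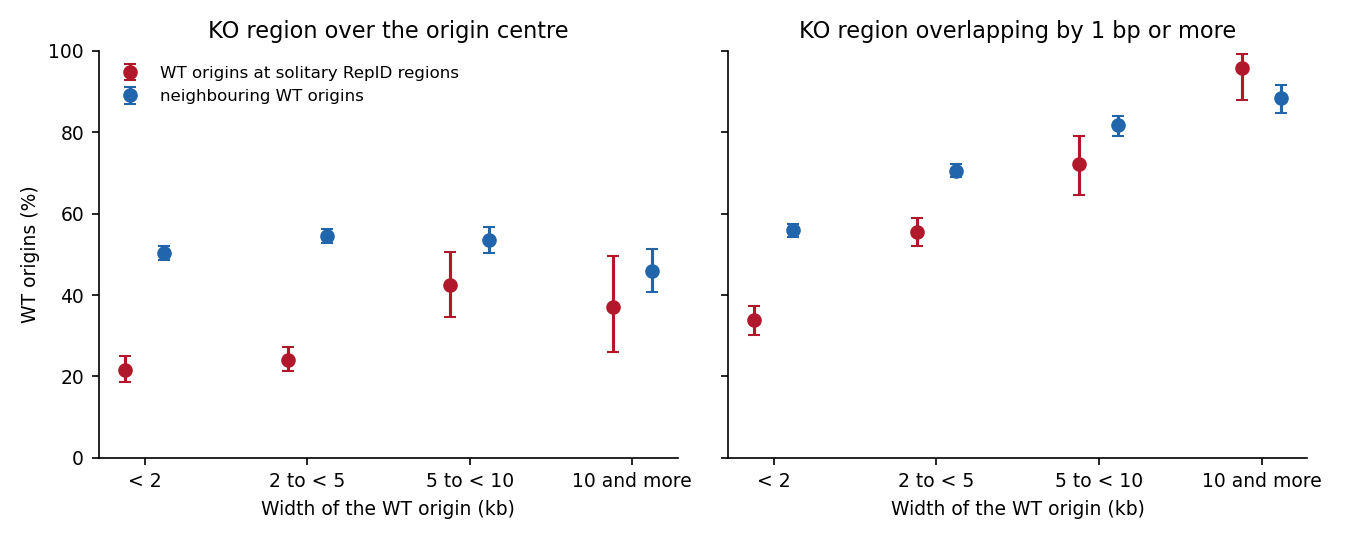
Percentage of WT origins (y) whose centre lies under a KO region (left) or that a KO region overlaps by at least 1 bp (right), by origin width in kb (x), for origins at solitary RepID regions (red) and neighbouring origins (blue), with 95% binomial intervals. At under 2 kb, 21.7% and 50.3% of centres are covered, and at 10 kb and wider the intervals of the groups overlap on the left, with 95.7% and 88.4% of origins overlapped on the right.

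Locus by locus, 1391 solitary regions had at least 1 neighbouring origin, with a median of 4 and at most 30. Averaged with equal weight per locus, the origin with RepID was covered at its centre in 27.0% and the neighbours in 50.3%, a mean difference of -23.3 points. The origin with RepID stood below the mean of its neighbours at 782 loci, above it at 288 and level with it at 321. Of the 1070 loci that differed, 73.1% (70.3 to 75.7%) had the lower value at RepID. An origin with RepID was either covered or bare, whereas its neighbours had a mean. A bare centre thus counted as lower when any neighbour was covered, and a covered one as higher when any was bare. This share therefore largely restates the 27.0%, and an even split is not its reference.

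Solitary RepID regions were unevenly spread over the chromosomes. They made up 16.5% of the RepID-bound regions of chromosome 13 (60 of 364), 15.9% on chromosome 21 and 15.7% on chromosome 4, but 1.38% on chromosome 19 and 1.55% on chromosome 22, with 17 members on each. Part of this is set by the rule, since a RepID-bound region stands alone more readily where such regions are few. Chromosomes 13 and 4 held 364 and 667 RepID-bound regions, chromosomes 19 and 22 1235 and 1096. Chromosomes 13 and 4 are poor in genes and chromosomes 19 and 22 rich in them.

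On all 22 autosomes the centres of WT origins with solitary RepID were covered less often than those of neighbouring origins, with differences from -36.7 points on chromosome 20 to -6.09 on chromosome 19. On all 22 the RepID centre also had a lower KO coverage than the positions 2 kb away. The level itself varied: KO regions covered 46 of 130 solitary RepID centres on chromosome 8 (35.4%) and 5 of 60 on chromosome 13 (8.33%). On chromosome 8 the neighbouring origins were also covered often, at 64.7%. Without chromosome 8, 18.3% of the solitary centres were covered.

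**Figure D5:**
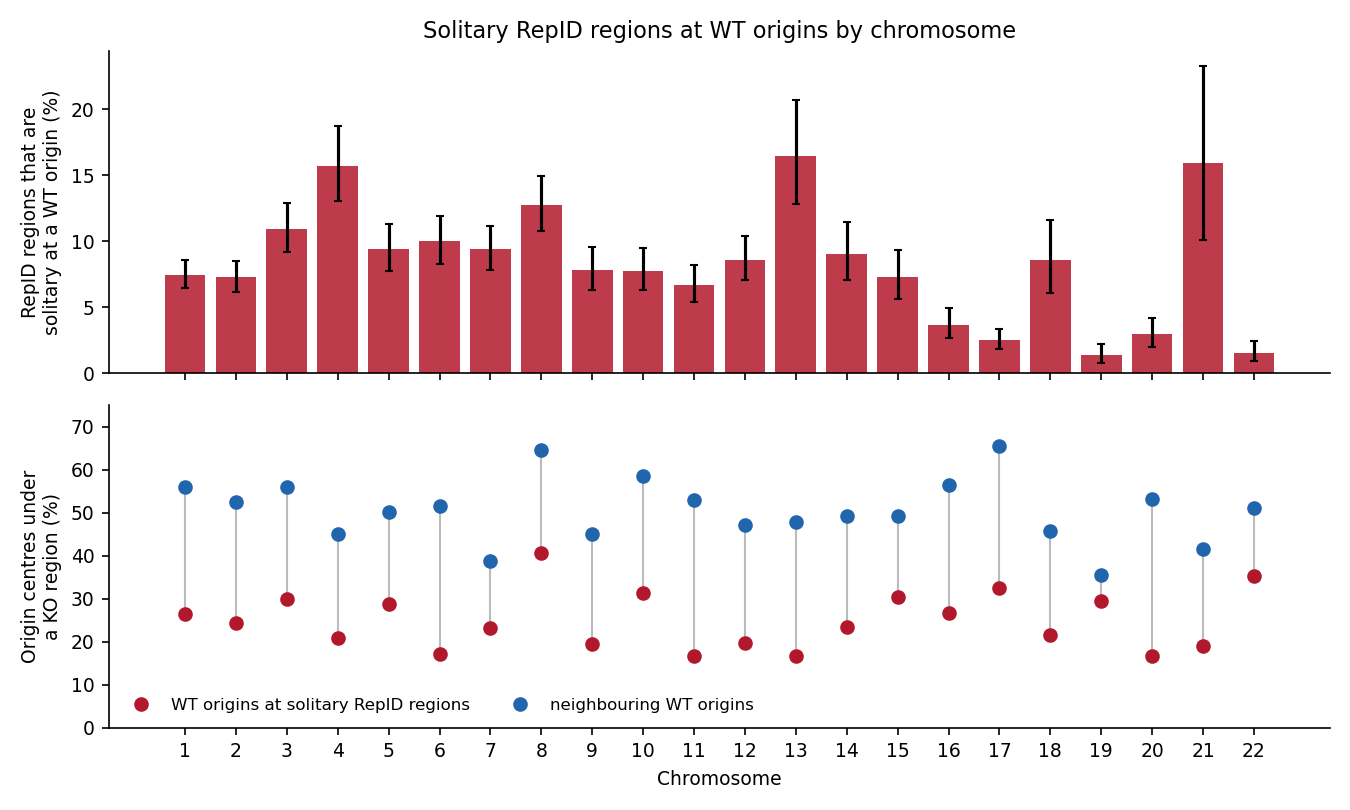
Top, percentage of the RepID-bound regions of each autosome that are solitary at a WT origin (y) by chromosome (x), with 95% binomial intervals. Bottom, percentage of origin centres under a KO region (y) for WT origins at solitary RepID regions (red) and neighbouring WT origins (blue), joined by a grey line. The share of solitary regions runs from 1.38% to 16.5%, and the red point lies below the blue one on all 22 chromosomes.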

How the data were processed

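Nascent strands were sequenced from WT and KO HCT116 cells and RepID ChIP-Seq from U2OS cells, 1 library each. The authors deposited lists of enriched regions with a score. RepID regions were called with MACS against genomic input. The submitters' processing notes name MACS, SICER and build hg19 without roles, and the caller for HCT116 nascent strands and the meaning of that score are not given in the sources used here. HCT116 genomic control DNA was not analysed here. Scores were compared only within a list.

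Gaps, overlaps and covered positions were computed with SciPy 1.17.1, pandas 2.3.3 and numpy 2.4.6 in Python 3.11.15, checked against bedtools 2.31.1 on simulated data, and drawn with matplotlib 3.10.9. All regions were used as deposited. KO coverage was read every 100 bp up to 10 kb from each centre. The members, the lists and the comparisons were chosen with earlier results of these data known. Named regions were the 5 highest-scoring members, the 3 most isolated, the 3 highest-scoring with a KO region over the centre, the 3 highest-scoring with none within 10 kb, and those next to each limit. Genes and sequences at these regions are not reported here, since no genome or annotation of hg19 was used. Alternatives changed the limits, score thresholds, KO list, overlap criterion and members used.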

Additional observations from a re-analysis of the deposited data

Results flagged for a closer look

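Chromosome X was outside the rule and outside all comparisons. By the same distances, 59 of its 297 RepID-bound regions stood alone at a WT origin. A KO region covered the centre of 1 of them (1.69%, exact binomial 95% interval 0.0429 to 9.09%), and 0.847% of positions 2 kb away. The KO list holds only 190 regions on chromosome X (0.119% of the list), against 1304 in the WT list (1.65%), and coverage was low 2 kb from the RepID centres as well as at them. The source of this difference between the lists was not tested.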

How the results depend on the processing

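Of 87 alternatives (21 of them added after seeing the data), 60 moved a value by less than its counting interval and 26 by more. In 1, the ratio of centre to edge turned from below to above 1: it was 1.97 without the KO regions more than 2 kb from every WT region, which thins KO regions at the edge by construction, while the ratio to 1 to 2 kb away was 0.671. No difference with an interval away from 0 changed sign. Some of the 60 could not have moved. A KO region over the centre of a WT origin overlaps a WT region. Leaving out KO regions more than 2 kb from every WT region therefore kept the difference from neighbours at -26.9 points. Likewise, a RepID centre inside an origin already overlaps it, so requiring overlap kept the offset at 0.327. The difference between solitary and clustered centres, whose interval spans 0, ran from -2.55 to 0.431 points. With 50 kb as the limit for standing alone, the solitary share was 14.0%, the offset 0.345, the other WT origins within 100 kb 5 and the difference from neighbours -21.8 points; with 200 kb, the share was 3.07% and the share of origins overlapped 46.0%. In another alternative, RepID regions below the median score were left out before isolation was judged. The 2269 members it gave could have weaker RepID-bound regions within 100 kb. With these RepID regions at or above the median score, the share was 18.9% of those regions, the median width 830 bp, centres inside the origin 97.0%, other WT origins 4, covered centres 15.7%, the ratio of centre to edge 0.702 and that of centre to 1 to 2 kb away 0.568. With WT regions at or above the median score these were 4.77% (share), 96.3% (centres inside), 1 (other WT origins), 0.748 and 0.581 (ratios). Requiring overlap with the WT origin put 97.3% of centres inside. With the KO list limited by score to the number of WT regions, 14.8% of centres were covered, 32.0% of origins overlapped, the difference from neighbours was -22.6 points and the ratio to 1 to 2 kb away 0.755. KO regions narrowed to 500 bp each way from the middle covered 5.76% of centres, with a difference from neighbours of -8.26 points. Of the origins, 27.9% were covered over at least 50% of their length. The interval of the ratio of centre to edge reached past 1 for the narrowed regions (0.902), the limited KO list (0.933) and the 200 kb limit (0.891). The cut and the stricter lists hold less sequence or fewer regions by construction. Without the 33 members near the longest empty stretches, 19.5% of centres were covered. No paired analysis was possible because each condition has 1 library, which leaves no samples to pair. The comparison locus by locus pairs origins of the same libraries. Unknown depth limits every comparison of the WT with the KO list.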
